A study of Mus musculus with 232 samples.

Results

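The nIPC-perin cluster is one of the 24 clusters into which the depositors sorted single cells of the mouse dentate gyrus, a part of the hippocampus in which granule neurons are still made after birth. Its cells were taken by that deposited assignment alone, and there were 468 of them among 24185 cells. E16.5 gave 159 cells, P0 gave 136 and P5 gave 156, so that 451 were perinatal, and the other 17 came from P18 (4 cells), P19 (1), P23 (7) and P120 (5). P132 gave none. The labels do not explain the cluster names. In the usual reading nIPC-perin stands for perinatal neuronal intermediate progenitors, nIPC for neuronal intermediate progenitors and RGL_young for young radial glia-like cells.

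The E16.5, P0 and P5 cells were from CD-1 mice of unknown sex, with 1 library at E16.5 and 2 at each of P0 and P5. The CD-1 mice of P18 and P23 were male, and those of P19 were C57Bl/6 females. The adults of P120 and P132 were hGFAP-GFP mice of both sexes, whose green fluorescent protein is under the control of a human GFAP promoter. Their cells were sorted for that protein, so shares at these ages are shares of a sorted population. Whether the transgene was on in every captured cell is not shown. All tissue was microdissected from slices and dissociated with papain before capture on the 10X Genomics Chromium system. Values are counts of unique molecular identifiers (UMIs, tags that mark single captured RNA molecules). Levels are given as CPM, the UMIs of a gene per 1000000 UMIs of a sum of cells, and since these are tags and not whole transcripts, CPM is not divided by transcript length. The animals of an age were pooled, so the age is the unit of replication and a difference between ages cannot be told apart from a difference between pools.

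Granule neurons arise from radial glia-like stem cells, which carry glial genes such as Fabp7 and Slc1a3, keep Notch signalling on and divide rarely in the adult. Their daughters, the intermediate progenitors, switch on Eomes and Neurog2, divide a few times and give neuroblasts, which express Neurod1, Dcx and Prox1. Progress through the cell cycle shows in 2 sets of genes: those of DNA synthesis (S phase), such as Pcna and the Mcm helicase, and those of G2 and mitosis (G2/M), such as Cdk1, Ccnb1 and Top2a. Many G2/M genes share a promoter layout of CCAAT boxes, bound by NF-Y, and a cell cycle genes homology region (CHR), through which the DREAM and MYB-MuvB complexes hold genes off in resting cells and turn them on before mitosis.

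Promoters of 4 G2/M genes are printed because this list was shared by nIPC-perin and nIPC and set both apart from RGL_young, as described below. Each run is the 200 bases just before the RefSeq start of the gene on GRCm38.p6, in the direction of transcription, with capitals marking CHR (TTTGAA or TTCGAA) and CCAAT on either strand, so that TTCAAA and ATTGG are also capitals. In Ube2c, 1 CCAAT on each strand overlap. The genes are Cdk1, the kinase that starts mitosis (chr10:69352913-69353112, minus strand), Top2a, the topoisomerase that untangles chromosomes (chr11:99024190-99024389, minus strand), Ube2c, a ubiquitin conjugating enzyme of mitotic exit (chr2:164769729-164769928, plus strand), and Cdc20, an activator of the anaphase-promoting complex (chr4:118437344-118437543, minus strand).
Cdk1: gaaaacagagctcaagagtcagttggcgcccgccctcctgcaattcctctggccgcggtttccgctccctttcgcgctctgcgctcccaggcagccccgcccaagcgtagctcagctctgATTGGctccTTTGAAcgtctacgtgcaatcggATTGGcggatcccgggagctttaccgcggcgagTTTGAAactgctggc
Top2a: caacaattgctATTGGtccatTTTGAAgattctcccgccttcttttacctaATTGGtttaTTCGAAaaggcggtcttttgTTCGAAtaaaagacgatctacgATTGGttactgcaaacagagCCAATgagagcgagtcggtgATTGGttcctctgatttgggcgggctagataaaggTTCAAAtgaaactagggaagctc
Ube2c: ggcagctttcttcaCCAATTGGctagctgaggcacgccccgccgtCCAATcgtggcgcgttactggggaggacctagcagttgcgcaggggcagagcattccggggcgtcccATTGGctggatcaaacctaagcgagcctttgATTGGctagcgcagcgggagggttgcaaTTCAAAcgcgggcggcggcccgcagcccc
Cdc20: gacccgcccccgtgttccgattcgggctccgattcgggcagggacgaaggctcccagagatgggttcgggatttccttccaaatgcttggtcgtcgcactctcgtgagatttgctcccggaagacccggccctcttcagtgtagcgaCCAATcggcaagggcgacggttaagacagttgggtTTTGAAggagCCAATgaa
Of the 30 G2/M genes, 26 matched the RefSeq table, with 28 windows of this length. CCAAT was in 25 windows (89.3%) and CHR in 13 (46.4%), all 13 of which also held CCAAT. Among all 32851 windows of 27025 genes, 29.3% held CCAAT, 13.4% CHR and 4.02% both. Of 22 windows of the S phase list, 15 held CCAAT (68.2%) and 3 held CHR (13.6%), and of 15 windows of the intermediate progenitor list 8 held CCAAT and 0 held CHR. A match is a run of letters and not a measured binding site.

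The whole series had clusters of unequal depth, and nIPC-perin was among the deeper ones. Its cells had a median of 7030, 6026 and 5626 UMIs at E16.5, P0 and P5, where RGL_young had 5361, 3735 and 3771 and nIPC 7962, 5498 and 5662. Comparisons of single cells below therefore use cells thinned to 2000 UMIs each. Summed over cells, nIPC-perin held 1258666, 832887 and 938463 UMIs at the 3 ages. Across the 11 libraries, 456 of 23725 distinct barcodes occurred in more than 1 library, and 17 perinatal nIPC-perin cells carried such a barcode. Haemoglobin RNA was uneven between cells: at P5 nIPC-perin had 3715 haemoglobin UMIs, of which 1 cell held 2207, and at E16.5 nIPC had 7110, of which 1 cell held 3255. Without cells of 20 or more haemoglobin UMIs, or without cells of a shared barcode, the total of called genes in each comparison below stayed within 1.5 times. Single calls did change: Hmmr against nIPC was lost without shared barcodes (edgeR adjusted p 0.069), and Cdk4 against RGL_young was lost without either set of cells (0.058 and 0.060).

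The 4 genes that mark the cluster split into a pair of cell cycle genes and a pair of radial glial genes. Top2a was at 489 CPM at E16.5, 578 and 530 in the 2 libraries of P0, and 578 and 518 in those of P5. Cdk1 was at 333 at E16.5, 291 and 311 at P0, and 339 and 273 at P5. Both were at steady levels over the 3 ages, and every library lay above every age of RGL_young, where Top2a was at 14.4 to 32.8 and Cdk1 at 10.6 to 24.3 CPM. Id3, an inhibitor of basic helix-loop-helix factors that BMP signalling induces, was at 512 CPM at E16.5, 930 and 1082 at P0, and 867 and 833 at P5. Tnc, the matrix protein tenascin C of the radial glial niche, was at 152 at E16.5, 210 and 288 at P0, and 136 and 207 at P5. In nIPC, Id3 was at 87.0, 72.2 and 13.7 CPM and Tnc at 13.4, 2.89 and 10.95 over the same ages, below every nIPC-perin library. Against RGL_young, 2 of the 4 markers were higher at the threshold and 2, Id3 and Tnc, were not called. Without E16.5, Tnc was called lower than in RGL_young (log2 fold change -0.73, edgeR adjusted p 0.0058). Id3 was highest in the Immature-Astro cluster, at a mean of 2474 CPM against 790 in nIPC-perin. So Top2a and Cdk1 set nIPC-perin apart from RGL_young, and Id3 and Tnc set it apart from nIPC.

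**Figure D1:**
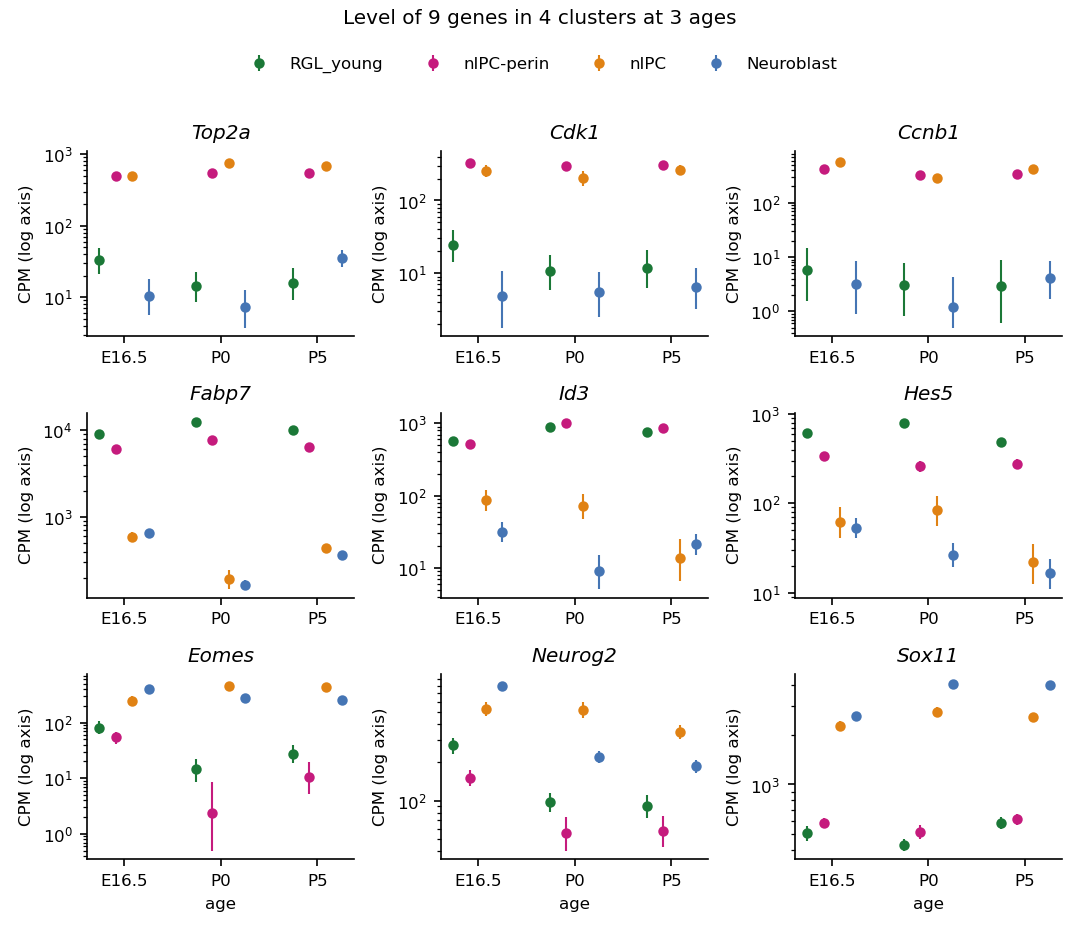
CPM of 9 genes (log axes) at E16.5, P0 and P5 in RGL_young, nIPC-perin, nIPC and Neuroblast. Points are the sums of all cells of a cluster at an age and bars are exact 95% Poisson intervals, which cover counting error only. In the upper row nIPC-perin lies beside nIPC, in the middle row nearer to RGL_young than to nIPC, and in the lower row below nIPC, with Sox11 at 586, 518 and 615 CPM against 2266, 2764 and 2555.

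To place the cluster gene by gene, the summed counts of nIPC-perin, nIPC, RGL_young and Neuroblast at the 3 ages were compared within age with edgeR's quasi-likelihood test, over 9449 genes. The depositors drew the clusters on these same counts, so the tests describe where the cluster boundaries lie and are no independent evidence that the clusters differ. Against nIPC, 928 genes were higher in nIPC-perin (9.82%) and 839 lower (8.88%) at an adjusted p under 0.05. Against RGL_young, 712 were higher (7.54%) and 409 lower (4.33%). Against Neuroblast, 2273 were higher (24.1%) and 2137 lower (22.6%). The median log2 fold change over all genes was near 0 in each of the 3 comparisons, at -0.0004, -0.02 and -0.005. With 3 ages the counts rest on each pool: without P0 or P5, 780 and 773 genes were called against nIPC in place of 1767, and 344 (316 higher, 28 lower) and 443 (371 and 72) against RGL_young in place of 1121. Without E16.5, 1611 were called against RGL_young, and without P0, 2773 against Neuroblast in place of 4410.

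The cell cycle genes of nIPC-perin were at the level of dividing nIPC and far above RGL_young. Against RGL_young all 30 G2/M genes were higher, with a median log2 fold change of 5.27. Kif23, a kinesin of cytokinesis, had 220 UMIs in nIPC-perin and none in RGL_young, which makes it at least 73.2-fold higher when the floor of 3 counts is set over the group, and placing it at that bound leaves the list median at 5.27. Ccnb1, the cyclin partner of Cdk1, was at 419, 329 and 339 CPM in nIPC-perin and at 5.71, 3.04 and 2.98 in RGL_young, a log2 fold change of 6.55 ± 0.24 (SE, edgeR adjusted p 7.9e-12). Top2a was higher by 4.78 ± 0.34 (edgeR adjusted p 8.9e-09) and Cdk1 by 4.43 ± 0.19. Ube2c was higher by 5.72 and the chromatin protein Hmgb2 by 2.84. Besides Ccnb1, Cdc20 and Ube2c, the strongest rises by the naming rule included Fam64a, Casc5 (a kinetochore scaffold), Birc5 (survivin), Aurkb (Aurora kinase B), Ckap2l and Spc25, each with a log2 fold change of at least 5.57, the value of Spc25.

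Against nIPC the same list held few differences. None of the 30 G2/M genes was higher and 2 were lower, the mitotic motor Cenpe by -0.67 and the spindle protein Hmmr by -0.70, with a list median of -0.19. Neither call held without P0, where the edgeR adjusted p was 0.08 for Cenpe and 0.12 for Hmmr, nor without P5, where it was 0.15 and 0.17. Top2a differed by -0.34 ± 0.24 (edgeR adjusted p 0.38), Ccnb1 by -0.26 (0.22) and Cdk1 by 0.29 ± 0.14 (0.17), none of them called. Of 25 S phase genes 15 were higher than in RGL_young and none lower (list median 0.90), and 2 were higher and 2 lower than in nIPC (list median 0.05). Without the age block the first count was 9. Pcna, the sliding clamp of DNA replication, was at 82.6, 191 and 135 CPM in nIPC-perin and 68.5, 66.8 and 46.7 in RGL_young, a log2 fold change of 1.17, although without P0 the call was lost (0.93, edgeR adjusted p 0.11).

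Of 14 tested microcephaly genes, many of which act at the centrosome and spindle, 11 were higher than in RGL_young (median 2.27), among them Aspm by 5.64, and 1 was higher than in nIPC, where the median was -0.33. Of 18 chromatin genes of dividing cells, 16 were higher than in RGL_young (median 0.88). Against nIPC, 7 of the 18 were lower (median -0.39), among them the nucleosome binding protein Hmgn2 at 1694 CPM against 3146 (means over the 3 ages), and the nucleotide enzyme Dut of the S phase list was lower too, at 357 against 679. Without the age block 9 chromatin genes were called against RGL_young and 1 against nIPC.

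Some regulators of G1, the phase in which a cell decides whether to divide again, were called against nIPC. Ccnd1, cyclin D1, was at 31.0, 160 and 109 CPM in nIPC-perin and 8.92, 31.8 and 27.4 in nIPC, higher by 1.99 ± 0.29 (edgeR adjusted p 8.2e-05). Its kinase partners were lower, Cdk6 by -1.17 ± 0.26 and Cdk4 by -0.52, as was the inhibitor Cdkn1b by -0.71. The calls of Cdk6, Cdk4 and Cdkn1b were lost without P0, with edgeR adjusted p of 0.12, 0.10 and 0.24, and without P5, with 0.097, 0.068 and 0.076. Cdkn2c, the inhibitor p18INK4c, was at 162, 256 and 288 CPM, higher than in RGL_young by 2.64 ± 0.24 (edgeR adjusted p 2.6e-07) and not called against nIPC (0.16, adjusted p 0.68). In all, 1 of 12 tested G1 genes was higher and 3 were lower than in nIPC, and 8 were not called. Over all genes, 9.82% were higher and 8.88% lower than in nIPC. Against RGL_young 2 of the 12, Cdkn2c and Cdk4, were higher, where 7.54% of all genes were. The call of Cdk4 was lost without P0 (edgeR adjusted p 0.44) or P5 (0.28).

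Radial glial genes were mostly higher in nIPC-perin than in nIPC. Of 20 such genes, 16 were higher than in nIPC and none lower, with a median log2 fold change of 2.07, and the 4 not called were Pax6, Notch1, Prom1 and Tfap2c. Fabp7, a fatty acid binding protein of radial glia, was at 6122 CPM at E16.5, 7766 and 7569 in the libraries of P0, and 6646 and 6247 in those of P5. In nIPC it was at 591, 194 and 441, so every nIPC-perin library was above every age of nIPC, by 4.04 ± 0.35 on the log2 scale (edgeR adjusted p 3.8e-07). Slc1a3, the glial glutamate transporter GLAST, was higher than in nIPC by 1.78 ± 0.21, Ptprz1, a receptor phosphatase, by 2.92, Sox9 by 1.82 and Ednrb, an endothelin receptor, by 4.05. Tnc was higher by 4.18 ± 0.44 and Id3 by 3.81 ± 0.41.

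Against RGL_young, 4 of the 20 radial glial genes were lower and none higher, with a median of -0.42. These were Hes5 by -1.08 ± 0.21 (edgeR adjusted p 0.0019), Aldoc by -1.64, Prom1 by -0.76 and Hopx by -0.65. The first of them, a Notch effector, was at 337 CPM at E16.5, 321 and 203 at P0, and 285 and 262 at P5, below RGL_young at 615, 784 and 489 in every library. Fabp7 differed from RGL_young by -0.64 ± 0.30 (edgeR adjusted p 0.19) and Slc1a3 by -0.46 ± 0.19 (0.14), neither called. Without E16.5 both were called, with -0.71 and -0.56 at edgeR adjusted p of 0.02 and 0.0026, and 13 of the 20 were then lower. Without P0, Hes5 (adjusted p 0.10), Hopx (0.17) and Prom1 (0.35) were not called. Astrocyte genes lay between the clusters: 10 of 11 tested were higher than in nIPC (median 3.65) and 5 were lower than in RGL_young (median -0.54), the intermediate filament gene Gfap by -1.90 ± 0.22 (edgeR adjusted p 5.8e-06). Without the age block these counts were 4 and 2, and Gfap was not called (adjusted p 0.25).

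Intermediate progenitor and neuronal genes were low, which goes against the cluster's name. Of 15 tested intermediate progenitor genes none was higher than in nIPC and 11 were lower, with a median of -2.11, and those not called included Btg2, Dll1 and Dll3. Eomes, the factor by which intermediate progenitors are usually recognised, had 68 UMIs (54.0 CPM) at E16.5, 2 and 0 UMIs in the P0 libraries, and 3 and 7 in those of P5. In nIPC it was at 248, 448 and 441 CPM, so every nIPC-perin library lay below every age of nIPC, by -4.19 ± 0.48 (edgeR adjusted p 6.9e-06). Neurog2, a proneural factor, was at 151, 55.2 and 57.5 CPM against 526, 517 and 344 in nIPC, a difference of -2.64 ± 0.25. Insm1 was lower by -3.21, the Notch modifier Mfng by -2.83 and the somatostatin receptor Sstr2 by -3.73.

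These genes were also no higher than in RGL_young. None of the 15 was higher there, 2 were lower, Gadd45g by -1.14 and Btg2, an inhibitor of proliferation, by -1.37, and the median was -0.24. Without P0, Gadd45g was not called (edgeR adjusted p 0.12), and without P5 Btg2 missed the threshold (0.051). Eomes, at 81.3, 14.4 and 27.8 CPM in RGL_young, differed by -0.61 (edgeR adjusted p 0.56) and Neurog2 by -0.74 (0.069). Without E16.5 both were called lower, with -1.60 (adjusted p 0.02) and -0.75 (0.0095). Of 20 neuroblast and immature neuron genes, 17 were lower than in nIPC (median -2.01) and all 20 lower than in Neuroblast (median -3.48). Against RGL_young 2 were lower and none higher (median -0.24). Sox11, a factor of newborn neurons, was at 586 CPM at E16.5, 560 and 476 at P0, and 526 and 709 at P5, lower than in nIPC by -2.22 ± 0.14 (edgeR adjusted p 2e-08). Neurod1 was lower than in nIPC by -3.70 and Dcx, a microtubule protein of migrating neurons, by -2.58. Tac2, a tachykinin precursor, had 1, 0 and 1 UMIs in nIPC-perin at the 3 ages and 239, 327 and 570 in Neuroblast. The cells are therefore called here by their cluster name alone. By these lists they were cycling cells with radial glial genes higher than in nIPC and with intermediate progenitor and neuronal genes low. The radial glial list is not particular to radial glia in these data. Its summed level was highest in Immature-Astro at P0 and P5, where nIPC-perin ranked 3 of 11 and 3 of 15 clusters.

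**Figure D2:**
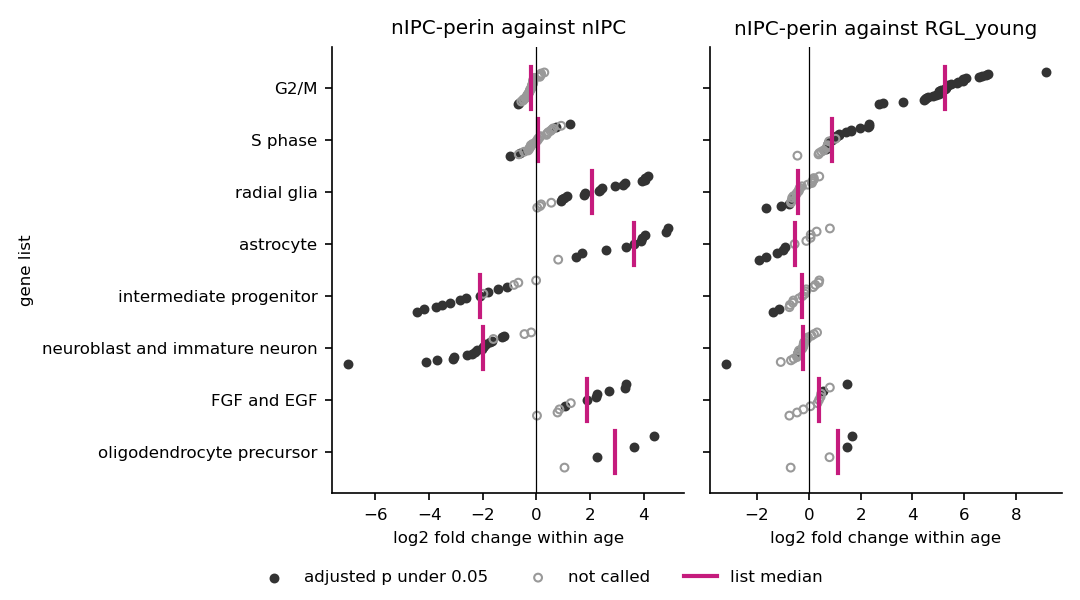
Log2 fold change within age of each tested gene of 8 lists, nIPC-perin against nIPC (left) and against RGL_young (right). Filled points have an edgeR adjusted p under 0.05 and short vertical lines are list medians. The G2/M genes centre on -0.19 against nIPC and 5.27 against RGL_young, and the intermediate progenitor genes on -2.11 and -0.24.

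Signalling genes differed from nIPC more often than from RGL_young in the number of calls, a difference that was not tested. Of 16 tested Notch genes, 7 were higher than in nIPC (Notch2, Notch3, Hes1, Hes5, Hey2, Lfng and Nrarp, which are receptors, targets and modifiers) and 3 lower (Hes6, Mfng and Rbpj). Hes1 was higher by 3.30 ± 0.43 and Lfng, a glycosyltransferase that tunes the receptors, by 3.73 ± 0.31, at 89.8, 109 and 109 CPM against 11.2, 5.78 and 5.48 in nIPC. Against RGL_young 1 of the 16, Hes5, was called, and it was lower. Of 13 Id and BMP genes 7 were higher than in nIPC and none lower, a count that fell to 3 without the age block and 4 without P0 or P5, and 1, Id4, was lower than in RGL_young. Of 9 Sonic hedgehog genes 3 were higher than in nIPC, namely the co-receptor Gas1 by 1.90, the receptor Ptch1 by 1.38 and Gli3, and none differed from RGL_young at the threshold. Ptch1 was not called without P0 (edgeR adjusted p 0.072) or P5 (0.052). Of 15 Wnt genes 7 were higher than in nIPC, and of 17 matrix genes of the progenitor zone 13 were higher and 1, Mdk, was lower by -1.05, a call lost without the age block (edgeR adjusted p 0.067). Against RGL_young 1 Wnt gene and 2 matrix genes, Vcan and Cspg5, were lower and none higher.

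Genes of regional identity were mostly lower than in nIPC, and those of lipid synthesis higher. Of 17 genes of the hippocampal region, 2 were higher and 9 lower than in nIPC (median -0.61), and 1 was lower than in RGL_young. Prox1, the factor that fixes granule cell identity, was at 47.7 CPM at E16.5, 51.4 and 68.4 at P0, and 78.4 and 108 at P5, and was lower than in nIPC by -1.20 ± 0.26 (edgeR adjusted p 0.0031). Nfib was lower by -1.15, Zbtb20 by -0.75 and Emx1 by -1.80. Prox1 was not called without P5 (adjusted p 0.09), nor Zbtb20 without P0 (0.06). Of 16 lipogenesis genes 10 were higher than in nIPC and none lower (median 0.79), a count of 5 without the age block, 6 without P0 and 4 without P5, and 1 was higher than in RGL_young. Hmgcs1, an early enzyme of cholesterol synthesis, was higher by 1.89. Of the 10 strongest rises against nIPC by the naming rule, Cyr61, Serpine2, Scrg1, Aldoc, Sparcl1 and Mlc1 complete those given above and below, and of the 10 strongest falls, Mpped1, Srrm4, Synpr, Pcp4, Elavl3 and Igfbpl1.

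A further group of genes was high in nIPC-perin from birth on, those of the oligodendrocyte lineage factors and the epidermal growth factor receptor. Olig1, a basic helix-loop-helix factor best known from oligodendrocyte precursors, had 15 UMIs (11.9 CPM) at E16.5 and was at 472 and 363 CPM in the P0 libraries and 481 and 465 in those of P5. It was the gene with the largest rise against nIPC by the naming rule, 4.38 ± 0.45 (edgeR adjusted p 2.3e-06), and was not called against RGL_young (0.80 ± 0.28, adjusted p 0.076). Without E16.5 it was called there, at 1.03 (adjusted p 5.7e-05). Olig2 had 3 UMIs at E16.5, and was at 159 and 123 CPM at P0 and 206 and 203 at P5, where RGL_young was at 44.0 and 59.6. It was higher than in RGL_young by 1.65 ± 0.23 (edgeR adjusted p 5.3e-05). Egfr, the receptor of epidermal growth factor, was at 4.77 CPM at E16.5, 78.3 and 82.5 at P0, and 101 and 106 at P5, against 8.56, 22.0 and 36.8 in RGL_young.

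Egfr was higher than in RGL_young by 1.47 ± 0.32 (edgeR adjusted p 0.005), a call lost without P0 (1.11, adjusted p 0.24) and without P5 (1.35, adjusted p 0.15). Without the age block neither Olig2 (adjusted p 0.43) nor Egfr (0.45) was called. Of 11 tested FGF and EGF pathway genes, 7 were higher than in nIPC (4 without the age block), Fgfr3 by 3.28, and 2 were higher than in RGL_young, Egfr and the effector Etv4 by 0.56. Etv4 was not called there without P0 (adjusted p 0.31) or P5 (0.38). Of 9 oligodendrocyte precursor genes 4 were tested. Of these, 3 were higher than in nIPC (median 2.93), 2 were higher than in RGL_young (median 1.13) and none was lower. The summed level of the list ranked 2 of 11 clusters at P0, where OPC was highest, and 4 of 15 at P5. Pdgfra and Sox10, which mark oligodendrocyte precursors, stayed low. Pdgfra had 3, 2 and 3 UMIs at the 3 ages where the OPC cluster was at 674 and 760 CPM at P0 and P5, and Sox10 had 1 UMI in all. Immature-Astro, a cluster with Olig1 at 479 and 559 CPM at those ages, was at a like level of that gene. Its mean over P0 and P5 was 91.6 CPM for Egfr, where nIPC-perin was at 80.4 and 103. For Fgfr3 and Etv4 its means were 207 and 181, against 113 and 103 over the 3 ages in nIPC-perin.

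In single cells thinned to 2000 UMIs, nearly every nIPC-perin cell carried G2/M RNA. The median cell had 21, 21 and 17 G2/M UMIs at E16.5, P0 and P5, against 1, 1 and 0 in RGL_young and 23, 19.5 and 21 in nIPC. Of the nIPC-perin cells, 99.4%, 98.5% and 96.8% had 3 or more. S phase UMIs had a median of 4 at each age. At 3 or more UMIs of each list, 107 of 159, 91 of 136 and 104 of 156 cells passed both, and 0, 1 and 0 passed neither. Many cells lie near the S phase threshold, with 2 or 3 UMIs in 51, 36 and 34 of them, so these are ranges and not phases. Cells with more S phase UMIs had fewer G2/M UMIs, with Pearson's r across cells of -0.338, -0.363 and -0.446. Cells of a library share their preparation, and the r describes them without a test.

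Radial glial RNA was present across these dividing cells. The median cell had 27, 25 and 29 UMIs of the list, with the quartiles at 21 to 36, 17 to 36 and 15 to 48.2, against medians of 34, 44 and 58 in RGL_young and 5, 4 and 4 in nIPC. Every nIPC-perin cell had at least 3. In Immature-Astro the median was higher still, at 94.5 at P0 and 70 at P5. Intermediate progenitor genes gave a median of 1 UMI at each age, against 5, 6 and 5 in nIPC, and 42.1%, 44.9% and 26.9% of the cells had none. Cells with more radial glial UMIs had fewer intermediate progenitor UMIs, with Pearson's r of -0.188, -0.155 and -0.429 (Spearman's rho -0.275, -0.278 and -0.488). Eomes was found in 6.29%, 0.735% and 3.21% of thinned cells (13.8%, 0.735% and 4.49% before thinning) against 29.4%, 63.3% and 55.8% in nIPC. The cluster labelled MiCajal-Retziusoglia was taken here as microglia, which do not express Eomes. There the share was 1.04% at P5, with a median depth of 4708 UMIs against 5626. That background is a share of 96 cells at 1 age and has a counting error of its own. The nIPC-perin share at P0 came from 1 of 136 cells before thinning. At P5 its exact 95% interval was 1.05% to 7.32%. Whether either share differs from the background was not tested.

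**Figure D3:**
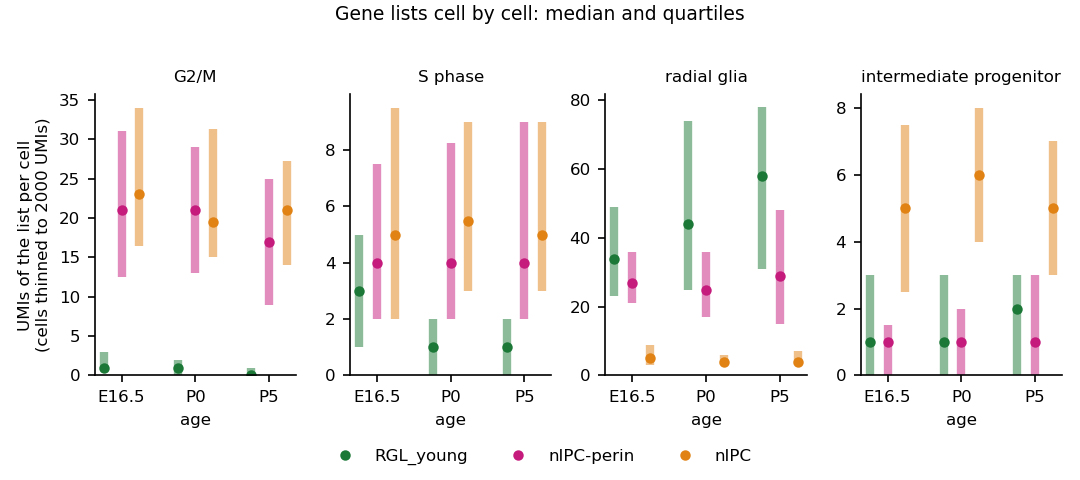
UMIs per cell of 4 gene lists after thinning every cell to 2000 UMIs, at E16.5, P0 and P5. Points are medians over cells and bars span the quartiles. The nIPC-perin medians for G2/M (21, 21 and 17) lie by those of nIPC, and for the intermediate progenitor list (1, 1 and 1) by those of RGL_young.

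Olig1 was found in part of the cells. After thinning it was in 1.26% of nIPC-perin cells at E16.5, 36.8% at P0 and 39.1% at P5 (4.40%, 46.3% and 50.6% before), against 2.80%, 11.4% and 12.03% in RGL_young. In endothelial cells, which do not express it, the share was 0% at E16.5 and 1.69% at P5, with a median depth of 7538 and 8000 UMIs against 7030 and 5626. Cells with Olig1 and cells with Egfr overlapped. Of 136 cells at P0, 63 had an Olig1 UMI, 39 an Egfr UMI and 34 both, where the product of the shares gives 18.1 cells. At P5 the counts were 79, 57 and 47 of 156, where the product gives 28.9. With Neurog2 the overlap was 6 cells at P0 and 5 at P5, where the product gives 10.7 and 11.7. Deeper cells show more genes of any kind, and these counts carry no test.

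With age, nIPC-perin gained astroglial genes, while genes of radial glia went both ways. There is 1 pool per age, so this is a description: among 3301 genes of 50 CPM or more, 120 (3.64%) were at least 2-fold higher at P5 than at E16.5 and 35 (1.06%) at least 2-fold lower, with P0 between them and no library of P0 beyond any library of the other two ages. With CPM scaled by TMM factors the split was 87 and 73. Olig2 rose 85.8-fold (exact 95% interval 28.9 to 420, from 3 UMIs at E16.5), and Egfr 21.7-fold (9.61 to 60.5). Sparcl1, an astrocyte matrix protein, was at 7.94 CPM at E16.5, 318 and 257 at P0, and 599 and 524 at P5, 70.8-fold higher (38.2 to 149). Slc1a2, the glutamate transporter GLT-1, went from 45.3 to 268 and 633 CPM, 13.98-fold (10.6 to 18.7). Slc25a18 (a mitochondrial glutamate carrier), Slc6a11 (a GABA transporter), Timp4, Car2 (a carbonic anhydrase) and Acsbg1 were also among the 10 strongest. Apoe, the apolipoprotein of glia, was at 278, 808 and 2225 CPM by age. Genes given above with radial glia also rose past the rule from E16.5 to P5. Slc1a3 went from 521 to 1858 CPM, Ptprz1 from 383 to 1141 and Ednrb from 51.6 to 179, while Vim and Hes1 fell.

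The genes that fell were fewer. Rspo3, a Wnt agonist, had 192 UMIs at E16.5, 5 and 10 in the P0 libraries and 1 and 1 in those of P5, a ratio of 71.6 (exact 95% interval 19.5 to 595). Meis2, a homeobox factor, went from 307 CPM at E16.5 to 110 and 108 at P0 and 47.5 and 48.5 at P5. Vim, vimentin of radial glial fibres, went from 1230 to 599 and 368 CPM, and Hes1, a Notch target, from 388 to 216 and 125. Loxl1, Efnb1, Sap30, Rgcc and Fgfbp3 complete the list with Xist. Top2a (489, 554 and 549) and Cdk1 (333, 301 and 307) were not among the genes past the rule.

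**Figure D4:**
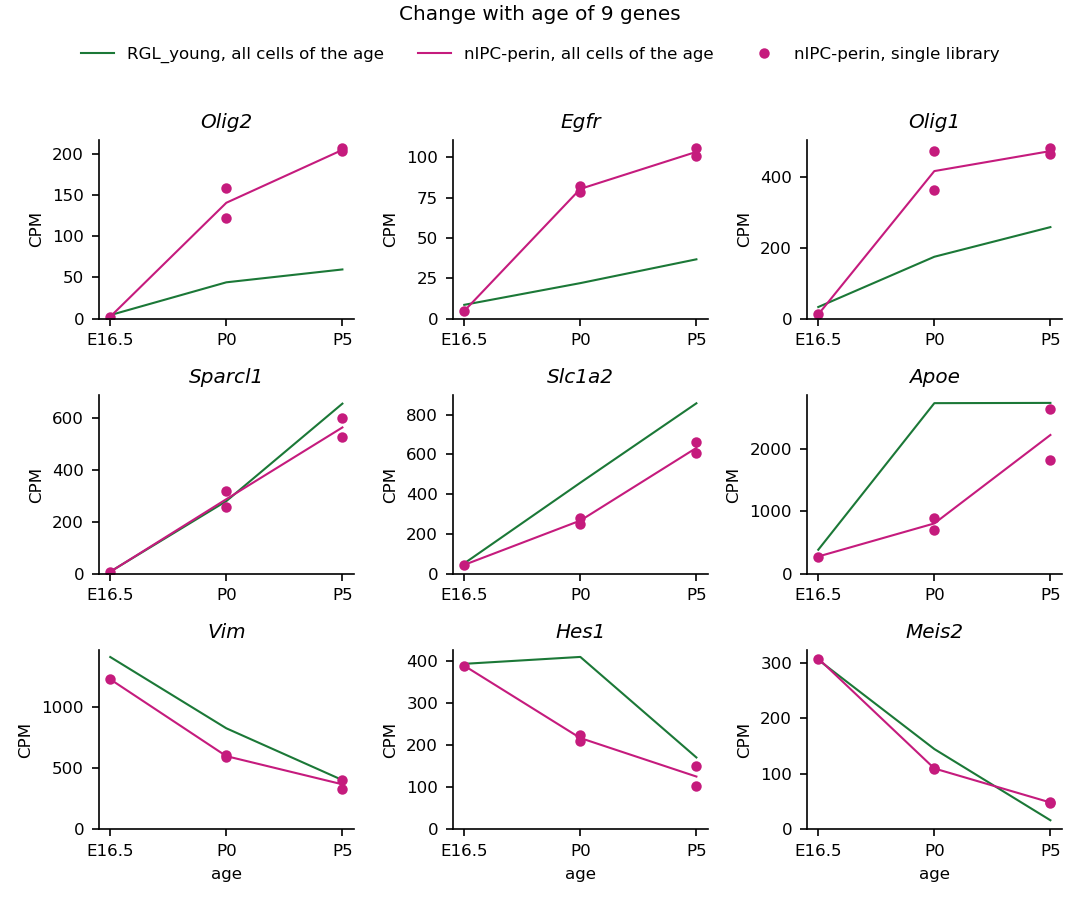
CPM of 9 genes by age in nIPC-perin (line through all cells of the age, points for the single libraries) and in RGL_young (line). The genes of the upper and middle rows are higher at P5 than at E16.5 in both clusters, with Olig2, Egfr and Olig1 at 205, 103 and 473 CPM in nIPC-perin and 59.6, 36.8 and 258 in RGL_young at P5, and Vim, Hes1 and Meis2 are lower at P5 than at E16.5 in both.

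Sex of the pools moved with age. Xist, transcribed from the inactive X of females, had 2030 UMIs in nIPC-perin at E16.5 and 0 at P5. At E16.5, 138 of 159 cells had Xist and no Y-linked UMI and 9 the reverse. In the P0 libraries these numbers were 10 and 32 of 70 cells and 16 and 31 of 66, and at P5 they were 0 and 43 of 79 and 0 and 42 of 77. Age and sex of the pool therefore cannot be told apart in the sums. Applied only to cells with a Y-linked UMI and no Xist (9, 63 and 85 at the 3 ages), the rule was met by 144 higher and 88 lower genes, and 91 of the 155 genes were among them. The cells are part of those that gave the 155 genes.

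Changes with age in the neighbouring clusters come from the same animals. Of the 120 genes higher at P5 in nIPC-perin, all 120 were also higher in RGL_young, 91 of them 2-fold or more, 109 in Neuroblast (57) and 100 in nIPC (47). Over all 3301 genes, 47.3% were higher at P5 in RGL_young, 49.0% in Neuroblast and 56.7% in nIPC, and 8.03%, 6.63% and 6.57% were so by 2-fold or more. Of the 35 lower genes, all 35 were lower in RGL_young (21 by 2-fold or more), 33 in nIPC (15) and 32 in Neuroblast (18), where 52.7%, 43.3% and 51% of all 3301 genes were lower, and 5.12%, 3.21% and 3.51% by 2-fold or more. The age slope of nIPC-perin was tested against the mean slope of the other 3 clusters with edgeR, in equal steps from E16.5 to P5. No gene of 9449 was called (0%) by edgeR, and 408 had an unadjusted p under 0.05. DESeq2 also called 0, with 123 at an unadjusted p under 0.05. Against nIPC and Neuroblast alone, leaving RGL_young out of the fit, 30 genes were called. Of these, 27 had a more positive slope in nIPC-perin than in those clusters and 3 a more negative one. The slope difference for Olig2 was 0.35 ± 0.41 (SE) log2 units per step, not called.

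The share of nIPC-perin among all cells was 6.96% at E16.5 (exact Clopper-Pearson 95% interval 5.95 to 8.08), 2.85% at P0 (2.39 to 3.36) and 3.52% at P5 (2.99 to 4.10). The 2 libraries of P0 were at 2.90% and 2.79% and those of P5 at 3.57% and 3.47%. At P18, P19 and P23 the shares were 0.147%, 0.0481% and 0.259%. The means of 4.44% ± 2.21 (SD, n = 3 ages) and 0.152% ± 0.106 differed by 4.29 points, with no overlap. The two-sided exact permutation p was 0.1, the smallest that 3 against 3 ages allow. In the usual reading the cluster is named for the perinatal ages, where nearly all its cells lie. The direction was thus known beforehand, and the lack of overlap and the p are no independent evidence. Of the sorted adults, P120 had 0.367% and P132 had 0 of 3829 cells, which allows a share of up to 0.0783% by a floor of 3 counts (the two-sided exact interval ends at 0.0963%). Of both nIPC clusters together, nIPC-perin made up 75.7%, 69.4% and 56.5% at the perinatal ages and 13.8%, 3.45% and 36.8% at P18, P19 and P23. Shares add up to the whole, so the growth of other clusters lowers them too.

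**Figure D5:**
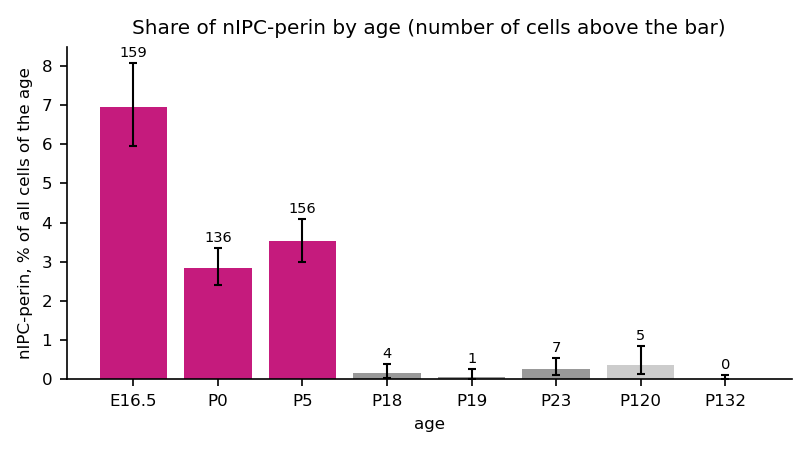
Share of nIPC-perin among all cells at each of 8 ages, in percent, with exact 95% binomial intervals and the number of cells above each bar. Darker grey marks juvenile and lighter grey sorted adult ages. The perinatal bars stand at 2.85 to 6.96% and every later bar at or under 0.367%.

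Few of the 17 later cells can be described. The 7 cells of P23 held 48867 UMIs, with 33 of Top2a, 14 of Cdk1, 211 of Hmgb2, 110 of Fabp7, 56 of Slc1a3 and 3 of Eomes, which puts Top2a at 675 and Fabp7 at 2251 CPM. The 5 cells of P120 held 29231 UMIs, with 19 of Top2a, 97 of Hmgb2, 53 of Slc1a3 and 31 of Fabp7, and 0 of Cdk1, Id3 and Eomes. A count of 0 in that sum allows up to 126 CPM by the exact 95% Poisson interval. The 4 cells of P18 had 2 Top2a and 20 Hmgb2 UMIs among 6880, and the cell of P19 had 0 Top2a and 14 Hmgb2 UMIs among 5007.

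Of the marker lists of other cell types, 5 that are given below were low in the perinatal sums of nIPC-perin, and blood was not. Astrocyte and oligodendrocyte precursor genes are described above. The ependymal list ranked 3 of 11 clusters at P0 and 8 of 15 at P5. The 6 blood genes summed to 233, 15.6 and 3959 CPM at E16.5, P0 and P5, the last mostly from the 1 cell named above. The 8 genes of microglia and macrophages summed to 9, 1 and 14 CPM at E16.5, P0 and P5, the 8 of endothelial and mural cells to 48, 17 and 81, the 7 of Cajal-Retzius cells to 15, 8 and 25, the 6 of leptomeningeal cells to 37, 29 and 11, and the 12 of the GABAergic lineage to 44, 47 and 36. Among defining markers, Cdh5, Mrc1, Lum, Trp73 and Nkx2-1 had no UMI. Other markers were found, such as Dcn and Rgs5 at means of 19.9 and 25.2 CPM, each ranking 3 of 15 clusters. The 15 dissociation genes, which papain treatment can induce, summed to 4000, 5811 and 4780 CPM in nIPC-perin, 3680, 3215 and 3490 in nIPC and 3551, 8030 and 6193 in RGL_young. Of 13 tested, 6 were higher than in nIPC, and 1 was higher and 3 lower than in RGL_young, and their part in the other differences was not tested.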

How the data were processed

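Single cells of the mouse dentate gyrus were captured with the 10X Genomics Chromium system (kit version 2, per the labels). The authors deposited 1 table of UMI counts, whole numbers for 27933 genes in 24185 cells, with each cell's age and cluster. Cell Ranger and the mm10 build are named in the submitters' processing notes, with no version. Cell filters and the clustering method are not given in the sources used here.

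Cells were grouped by the deposited cluster and age. Counts were summed per cluster and age, the libraries of an age together, and CPM is UMIs per 1000000 of the sum. The 12 sums of 4 clusters at E16.5, P0 and P5 were fitted with edgeR 4.0.16 (limma 3.58.1, R 4.3.3): filterByExpr, TMM scaling, quasi-likelihood test, two-sided, with age as a block and Benjamini-Hochberg adjustment over 9449 genes. DESeq2 1.42.0 was an alternative. The scripts also used Python 3.11.15, numpy 2.4.6, scipy 1.17.1 and pandas 2.3.3, and the tests were tested on simulated data. Pooled animals make each age 1 sample. With age as a block, p-values measure the scatter of clusters within ages and not the spread between pools. The age block comes from the labels, since clusters of an age share their animals: their deviations correlated with those of nIPC-perin at r of 0.414 to 0.510 for nIPC, 0.604 to 0.762 for RGL_young and 0.385 to 0.604 for Neuroblast.

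Single-cell shares used cells thinned to 2000 UMIs, and no cell was shallower. Doublets were not called, and no nIPC-perin cell of the perinatal ages exceeded 3 times its median UMI count. Intervals and floors cover counting error only. Genes were named from the lists or, past the threshold, at 50 CPM or more and with the same sign at all 3 ages, as the 10 largest changes in each direction. Some genes that the rule names are not reported here. The members and the 28 gene lists were chosen with earlier results of these data known. The alternatives tried were other scaling, no filter, no block, single libraries, fewer clusters, fewer cells and each age left out. Alternatives without cells of haemoglobin or shared barcodes, and with Y-linked RNA only, were chosen after seeing the data.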

Additional observations from a re-analysis of the deposited data

How the results depend on the processing

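The counts of called genes rest on the pairing of clusters within an age and on each pool. With no replicate block, 848 genes were called against nIPC (433 higher, 415 lower) in place of 1767, and 459 against RGL_young (395 and 64) in place of 1121. Leaving out 1 age gave 773 to 1843 genes against nIPC, 344 to 1611 against RGL_young, 2773 to 4579 against Neuroblast in place of 4410, and 0 for the age slope each time. With each library as its own sum, 1705 genes were called against RGL_young (930 and 775). The age slope gave 25 genes with no filter on low counts (21 and 4) and 30 without RGL_young (27 and 3), in place of 0. The genes that changed with age numbered 68 at a minimum of 100 CPM (49 and 19) and 68 at a fold of 3 (59 and 9), in place of 155, and 160 with TMM scaling (87 and 73, of which 122 were among the 155). In cells with Y-linked RNA alone they numbered 232 (144 and 88), of which 91 were among the 155. Leaving out 1 age moved the difference in share between 3.03 and 5.09 points. Other settings kept the totals within 1.5 times, but the 409 genes lower than in RGL_young became 228 with DESeq2, 689 with only the 2 clusters in the fit, 625 with no filter and 28 and 72 without P0 and P5. No gene recomputed under the alternatives changed direction. Several uncalled genes near 0 that did so when tried, such as Aspm against nIPC and Lfng and Notch1 against RGL_young, were left out, and their values are not given. The absence of reversals follows from that choice and is no check of the direction of genes in general. Of the recomputed genes 22 of 60 against RGL_young and 13 of 68 against nIPC changed their call without the block. Genes at a few UMIs, such as Pdgfra and Sox10, are limited by depth. With 1 pool per age, the cause of these shifts was not tested.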
